A study of Mus musculus with 35 samples.

Results

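Bulk RNA-seq of 2D epiblast stem cells (2D EpiSC) was set against that of epiblast-like cells (EpiLC), the primed against the formative state of mouse pluripotency. Each group had 3 libraries, 6 of the 35 samples of the series, and the genes compared were the 12975 autosomal genes, of 50225, with a TPM (transcript abundance scaled to length and to the library total) above 2 in at least 3 of these 6 libraries. Of the genes compared, 11333 were protein-coding. Both groups were wild-type mouse pluripotent stem cells. The 2D EpiSCs had been converted from embryonic stem cells (ESC) with FGF2 and Activin A, and the EpiLCs were ESCs exposed to FGF2 and Activin A for 48 h. The passage of the 2D EpiSCs, the ESC line and the base medium of the EpiLCs are not given in the sources used here, so time in culture and medium cannot be told apart from the state itself. Nothing in the labels states that the libraries of a group came from separate cultures. The p-values thus measure a spread between libraries within groups, which may be technical. That spread was pooled over 12 in vitro libraries, which include 3D EpiSC cultures besides these 6. The differences given are for the 2D EpiSCs and were not tested in those 3D cultures.

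Pluripotency is not a single state. Naive cells resemble the epiblast before implantation. On exposure to FGF2 and Activin A they pass through a formative state, in which the naive factors are shut down, the de novo DNA methyltransferases rise and the cells become able to respond to germ layer and germ cell cues. EpiSCs stand for a later, primed state, which depends on FGF and Activin signalling, resembles the epiblast around gastrulation and transcribes lineage genes at low levels while the core pluripotency factors are still made.

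TPM keeps no record of how many reads a library had, so depth is unknown. Values are listed for replicates 1, 2 and 3 in that order, 2D EpiSC first. A difference is the mean log2(TPM + 1) of the 2D EpiSCs minus that of the EpiLCs ± SE from limma, and calls required both a size above 1 and a p below 0.05 after Benjamini-Hochberg adjustment. The size of a difference depends on the added 1 where a group is near 0, and no difference is given for genes listed at 0 in all 3 libraries of a group. With bulk RNA, fewer cells of a type and less RNA per cell cannot be told apart.

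In the 2D EpiSCs 22754 to 23333 genes had a value above 0, and in the EpiLCs 24300 to 24438. Mitochondrial genes held 3.57 to 6.80% of TPM in the 2D EpiSCs and 4.45 to 7.32% in the EpiLCs. Replicates 1 and 2 of the 2D EpiSCs lay closer together (median absolute log2 difference 0.0715) than either did to replicate 3 (0.134 and 0.141) and than the EpiLC replicates did to one another (0.176 to 0.222). Rescaling TPM by median-of-ratios factors shifted the median difference of all genes by -0.16, from 0.12 to -0.03.

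More genes were higher than lower in the 2D EpiSCs. Of the genes compared, 1797 (13.8%) were higher in the 2D EpiSCs and 741 (5.71%) were lower, 19.6% in either direction. Lower genes made up 29.2% of those called, and 38.4% after rescaling, with 1444 higher and 901 lower. The largest differences leaned the other way: 31 genes were higher and 51 lower by over 4 log2 units. Part of this count was set by the filter, since 611 genes passed it through the 2D EpiSCs alone, with 504 of them called higher, and 451 through the EpiLCs alone, with 394 called lower. In all, 8397 genes (64.7%) had libraries that did not overlap between the groups, called or not.

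**Figure D1:**
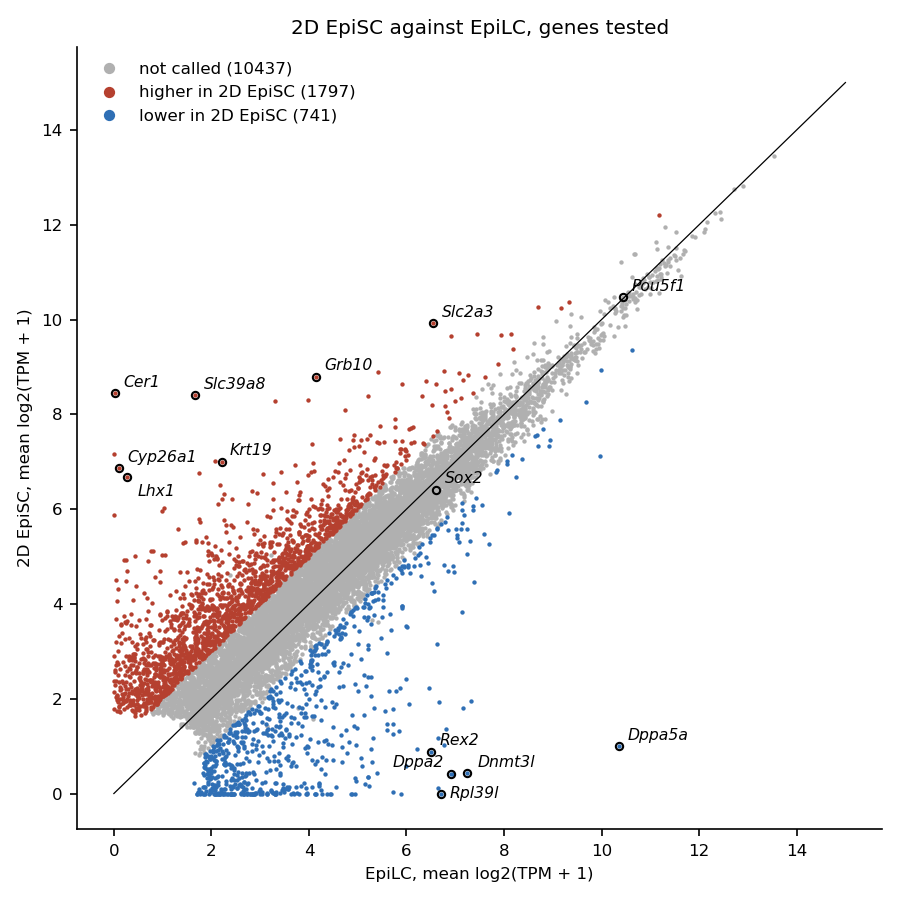
Mean log2(TPM + 1) of 3 EpiLC libraries (x axis) against that of 3 2D EpiSC libraries (y axis) for the 12975 genes compared, with the 1797 genes called higher in 2D EpiSCs in red, the 741 called lower in blue and the line of equality in black. Pou5f1 and Sox2 lie near the line, Cer1 at the upper left and Dppa5a at the lower right.

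The core pluripotency factors were transcribed in both states. None of the 9 listed was called in either direction, beside 19.6% of all genes, so a count of 0 among so few says little. Their median difference was -0.20, beside 0.12 over all genes. Pou5f1, which encodes the POU factor OCT4, stood at 1393, 1355 and 1511 TPM in the 2D EpiSCs and 1309, 1506 and 1353 TPM in the EpiLCs, overlapping ranges with a difference of 0.03 ± 0.09. Sox2, its DNA-binding partner, was at 87.6, 85.7 and 79.1 against 99.0, 73.3 and 125.7 TPM (-0.20 ± 0.19). Nanog, a homeobox factor of the same network, had values of 92.7, 89.4 and 130.6 against 78.8, 72.7 and 63.7 TPM, with groups apart but a difference of 0.52 ± 0.17 that stayed under the threshold of size. Sall4, a zinc-finger factor, differed by 0.59 ± 0.15 and Trim28, the corepressor of KRAB zinc-finger proteins, by -0.40 ± 0.12. The Nodal co-receptor Tdgf1 differed by -0.50 ± 0.21, Foxd3 by -0.40 ± 0.24 and L1td1 by 0.11 ± 0.17. Utf1, a chromatin-bound factor of pluripotent cells, had 252.0, 222.4 and 240.2 against 461.1, 522.0 and 405.5 TPM (-0.95 ± 0.13, adjusted p = 1.13e-04 by limma). Its groups did not overlap, and it was called lower after rescaling (-1.12) and without EpiLC replicate 3 (-1.04).

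Naive markers separated the states. Of 20 listed genes 15 were compared, with 9 lower in the 2D EpiSCs and 2 higher, 9 and 0 after rescaling, and 7 had passed the filter through the EpiLCs alone. Dppa5a, an RNA-binding protein of naive ESCs, had 0.816, 1.35 and 0.8845 TPM in the 2D EpiSCs and 1021, 1659 and 1320 TPM in the EpiLCs, the largest decrease of all genes compared (-9.35 ± 0.20, adjusted p = 1.44e-10 by limma). Zfp42, known as Rex1, had 0.507, 0.256 and 0.0992 against 34.3, 39.0 and 35.5 TPM (-4.87 ± 0.15). For both genes every 2D EpiSC library was far under every EpiLC library. Gbx2, a homeobox gene downstream of LIF in ESCs, was at 0.614, 0.474 and 0.253 against 16.2, 19.8 and 18.3 TPM (-3.73 ± 0.18). Fgf4, the FGF that ESCs make themselves, had 6.85, 7.44 and 9.87 against 89.6, 102.1 and 100.8 TPM (-3.46 ± 0.13). Esrrb, an orphan nuclear receptor, had 1.196, 1.39 and 2.15 against 8.84, 10.7 and 12.3 TPM (-2.18 ± 0.16).

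Not every gene of the naive list was lower. Klf5, a Krüppel-like factor, had 19.2, 19.3 and 23.5 against 10.1, 10.2 and 7.78 TPM (1.07 ± 0.16), and the dioxygenase Tet2 had 4.86, 4.54 and 3.80 against 1.74, 1.71 and 1.40 TPM (1.04 ± 0.24); both calls were lost after rescaling. Klf4 stood at 3.65, 3.49 and 3.48 against 2.31, 1.83 and 2.10 TPM and was not called (0.56 ± 0.19). As a check of the labels, the 6 naive markers fixed for it summed to 6.34 to 7.31 TPM in the 2D EpiSCs and 47.6 to 54.95 TPM in the EpiLCs, with Prdm14 listed at 0 in all 2D EpiSC libraries and in 2 EpiLC libraries. Zfp42 and Esrrb made up most of the EpiLC sum. Klf4, and Tbx3 in replicates 1 and 2, went the other way, with Tbx3 at 1.68, 2.05 and 0.559 against 0.306, 0.240 and 0.603 TPM. The 7 markers of primed and formative epiblast summed to 3214 to 3404 and 3151 to 3499 TPM.

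Genes usually listed as formative moved both ways. All 17 were compared, and 4 were higher and 6 lower in the 2D EpiSCs, also after rescaling, with a median of -0.38. Fgf5, the post-implantation FGF most often used to mark the exit from the naive state, had 423.7, 401.7 and 434.7 against 136.9, 134.1 and 152.5 TPM (1.57 ± 0.11, adjusted p = 4.75e-07 by limma). Otx2, the homeobox factor that redirects OCT4 in EpiLCs, had 330.0, 290.1 and 309.9 against 129.8, 134.0 and 117.7 TPM (1.28 ± 0.12). Both were thus more abundant in the 2D EpiSC libraries, with groups apart. In the other direction, Pou3f1, the POU factor OCT6, had 66.5, 61.8 and 69.3 against 161.4, 149.1 and 179.7 TPM (-1.29 ± 0.17). Tcf15, a bHLH factor of early epiblast, fell to 3.12, 4.09 and 4.21 from 25.1, 35.5 and 17.7 TPM (-2.45 ± 0.27). Lef1, a DNA-binding partner of β-catenin, had 13.7, 14.7 and 14.7 against 50.3, 44.9 and 40.1 TPM (-1.58 ± 0.11). The ETS factor Etv5 (-1.04 ± 0.10) and Fgf15 (-1.19 ± 0.18) were lower as well, while Grhl2, Zic2 and Zic5 were not called.

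**Figure D2:**
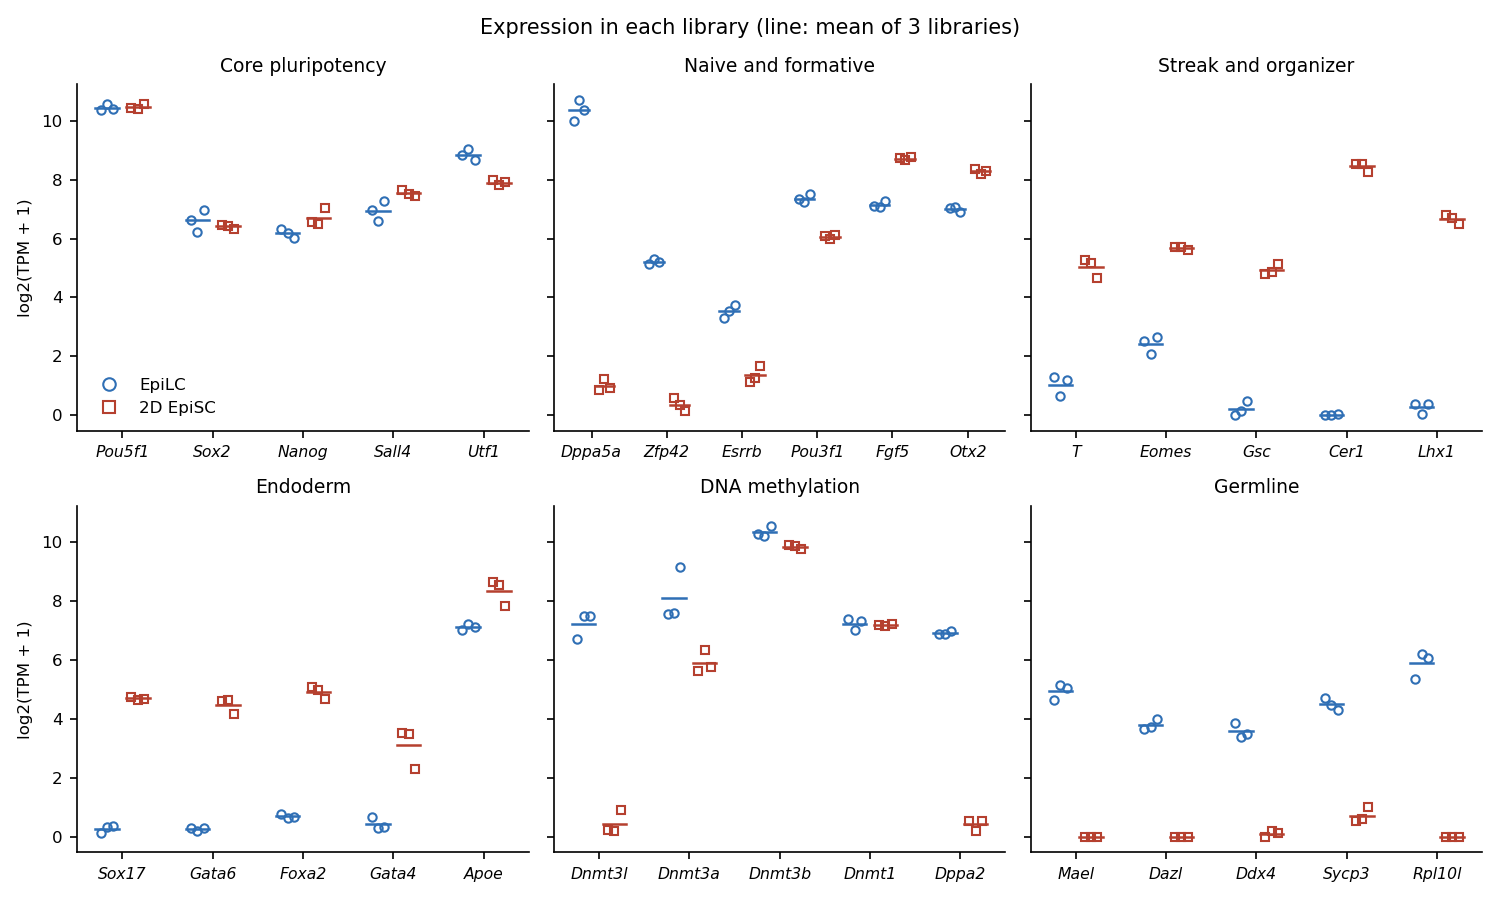
Level of selected genes in each library as log2(TPM + 1), with EpiLCs as blue circles, 2D EpiSCs as red squares and the mean of 3 libraries as a line, in 6 panels by role. The groups overlap for Pou5f1, Sox2 and Dnmt1 and stand apart for every gene of the streak, endoderm and germline panels.

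Within the de novo methylation machinery Dnmt3l and Dnmt3a were lower in the 2D EpiSCs and Dnmt3b was not called. Of 14 genes for writing and erasing DNA methylation, 5 were lower and 2 higher, and 5 and 1 after rescaling. Dnmt3l, a catalytically inactive partner of the de novo methyltransferases, had 0.170, 0.133 and 0.866 TPM in the 2D EpiSCs and 104.7, 177.9 and 179.9 TPM in the EpiLCs (-6.80 ± 0.23, adjusted p = 1.84e-09 by limma). Dnmt3a, a de novo methyltransferase, had 48.8, 80.3 and 52.7 against 188, 191 and 577 TPM (-2.198 ± 0.37), and -1.67 without EpiLC replicate 3, whose value was the highest. Dnmt3b, the more abundant enzyme, had 954.4, 930.2 and 869.2 against 1236, 1172 and 1507 TPM, groups that did not overlap but differed by only -0.50 ± 0.10. Dnmt1, the maintenance methyltransferase, overlapped between the groups (-0.05 ± 0.12), and Uhrf1 (-0.49) and Tet1 (-0.37) were not called. Gadd45b, a stress gene also placed in demethylation, was higher at 47.5, 46.6 and 55.5 against 4.55, 5.29 and 2.45 TPM (3.36 ± 0.27), whereas its relatives Gadd45a (-1.11 ± 0.23) and Gadd45g (-1.69 ± 0.21) were lower.

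The Dppa genes were all lower. Dppa2 and Dppa4, neighbours on chromosome 16 whose products form a chromatin-bound heterodimer, had 0.448, 0.140 and 0.446 against 117.6, 116.8 and 124.3 TPM (-6.50 ± 0.14) and 0.411, 0 and 0.664 against 123.4, 149.6 and 100.4 TPM (-6.54 ± 0.23). Dppa3, known as Stella, was listed at 0, 0 and 0.0942 against 8.39, 6.82 and 10.3 TPM (-3.19 ± 0.12). All 4 genes had passed the filter through the EpiLCs alone, which nearly fixes their direction. None of them overlapped between the groups, as held for 64.7% of all genes compared.

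Of the lists with at least 5 compared members, that of germline genes silenced by promoter DNA methylation had the largest share of lower genes. Of 26 listed genes, 19 were compared, with 18 lower in the 2D EpiSCs and 1, Tdrkh, higher. All but 2 of the 19 had passed the filter through the EpiLCs alone, so the count describes which of these genes EpiLCs transcribed. Mael, a piRNA pathway gene, was listed at 0 in all 2D EpiSC libraries and at 23.7, 34.5 and 32.4 TPM in the EpiLCs. Hormad1, a protein of the meiotic chromosome axis, was listed at 0 against 14.7, 27.4 and 21.9 TPM, and Dazl, an RNA-binding protein of germ cells, at 0 against 11.6, 12.3 and 15.1 TPM. Sohlh2, Stk31, Slc25a31, Mov10l1 and Tuba3b were likewise listed at 0 in the 2D EpiSCs, and at 2.44 to 19.7 TPM in the EpiLCs; Tuba3b shares most of its sequence with Tuba3a, so its level is uncertain.

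Several meiotic genes kept a trace. Sycp3, a synaptonemal complex component, had 0.443, 0.525 and 1.022 against 25.2, 21.4 and 18.9 TPM (-3.79), and Ddx4, the germ cell helicase also called Vasa, had 0, 0.140 and 0.0877 against 13.6, 9.39 and 10.2 TPM (-3.47). Sycp1 (1.45, 1.36 and 1.32 against 4.51, 4.30 and 5.29 TPM) and the meiotic cohesin subunit Stag3 (2.71, 1.77 and 2.24 against 8.95, 12.3 and 7.56 TPM) were the members with the highest levels left in the 2D EpiSCs among those lower. The 6 autosomal members that were not compared were under 2 TPM in every library of both groups. Tdrkh, a Tudor-domain protein that is also expressed outside the germline, was higher, with 12.6, 9.93 and 11.8 against 3.80, 5.21 and 3.31 TPM (1.29).

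Promoters were searched for the E-box CACGTG, whose letters equal their own reverse complement. In RefSeq promoters of 250 bases before to 50 after the transcript start (GRCm38.p6), found for 9099 of the genes compared (70.1%), CACGTG stood in 10 of 18 promoters of the germline list (55.6%) and in 12.1% of all promoters. It stood in 12.7% of the promoters of lower genes and 9.29% of those of higher genes, so the share over all lower genes was close to that of all promoters. Stretches of 60 bases around the motif, in capitals, are shown for members at or near 0 in the 2D EpiSCs, to set the letters beside the values above. A match is a description of the sequence and no evidence of binding. They lie at chr1:166238935-166238994 on the minus strand (Mael), chr3:95559593-95559652 on the plus strand (Hormad1), chr13:112652307-112652366 on the minus strand (Ddx4), chr6:49395457-49395516 on the plus strand (Stk31) and chr10:88459517-88459576 on the plus strand (Sycp3).
Mael: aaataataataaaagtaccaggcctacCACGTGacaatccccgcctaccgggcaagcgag
Hormad1: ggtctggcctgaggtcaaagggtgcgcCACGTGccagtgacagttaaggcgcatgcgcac
Ddx4: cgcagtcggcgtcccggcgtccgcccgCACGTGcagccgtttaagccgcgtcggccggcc
Stk31: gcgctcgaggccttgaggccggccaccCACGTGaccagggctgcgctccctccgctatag
Sycp3: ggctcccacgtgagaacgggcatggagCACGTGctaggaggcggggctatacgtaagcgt
The Sycp3 stretch holds a second CACGTG in lower case. The letters TCACNCCAC, on either strand, stood in none of the 18 germline promoters and in 1.51% of all promoters, and TGATGNAA, on either strand, stood in 2 of 18 (11.1%), Stk31 and Tdrd1, against 2.52% of all promoters and 4.51% of those of lower genes.

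Copies of ribosomal protein genes and germ cell specifiers were compared next. Rpl10l and Rpl39l, testis-enriched copies of ribosomal protein genes, were listed at 0 in the 2D EpiSCs and at 40.2, 72.5 and 66.7 TPM and 52.1, 122.1 and 174.5 TPM in the EpiLCs. They were the only 2 of 80 ribosomal protein genes called, and the median of the list was -0.16. Reads of such copies can be shared with their parent genes, so these levels are uncertain. Of 7 genes tied to primordial germ cell specification, Kit (2.26 ± 0.24), Prdm1 (2.00 ± 0.32) and Tfap2c (1.05 ± 0.25) were higher and Ifitm3 (-2.09 ± 0.20), Dnd1 (-2.15 ± 0.28), Ifitm1 (-1.24 ± 0.41) and Dppa3 lower; Tfap2c was no longer called after rescaling, which left 2 higher.

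Some of the deepest decreases lay in 3 stretches that hold zinc-finger genes, which were chosen after the values were seen. KRAB zinc-finger proteins bind retrotransposons and recruit TRIM28, and mouse carries them in clusters of near-identical copies. In chr4:144247777-147947314 (mm10), 31 of 52 genes (59.6%) were lower and 3 higher, with a median of -2.06. In chr13:62006640-67827002, 29 of 78 (37.2%) were lower and 1 higher, with a median of -0.26, and in chr2:175010241-177957297, 16 of 43 (37.2%) were lower and none higher, with a median of -0.85. Together 76 of their 173 genes (43.9%) were lower, a share that the choice of the stretches sets, beside 5.71% of all genes. They held 1.33% of the genes compared and 10.3% of the lower genes. No library of the 2D EpiSCs reached any EpiLC library for these 76 genes. That adds little to the calls, since 2531 of all 2538 called genes had libraries that did not overlap. After rescaling, 32, 30 and 21 genes were lower in the 3 stretches. Of the lower genes on chromosomes 4, 13 and 2, 21, 10 and 16 were protein-coding. Symbols beginning with Zfp, Znf or Rex2 numbered 19, 4 and 1 among them. On chromosome 13 most genes with a Zfp symbol were not called, and many of the lower genes were pseudogenes or lincRNA genes.

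On chromosome 4, Zfp980 had 1.22, 1.01 and 0.930 TPM in the 2D EpiSCs and 98.6, 93.8 and 137.9 TPM in the EpiLCs (-5.74 ± 0.17, adjusted p = 6.80e-10 by limma). Rex2 had 0.793, 1.04 and 0.723 against 77.5, 77.8 and 121.1 TPM (-5.62 ± 0.16), and Zfp600 had 0.918, 0.747 and 2.39 against 87.6, 84.7 and 131.1 TPM (-5.48 ± 0.25). These copies were almost silent in the 2D EpiSC libraries. Their neighbours kept more: Zfp990 had 40.9, 42.9 and 29.97 against 202.7, 162.4 and 261.2 TPM (-2.42 ± 0.17), and Zfp984 had 32.9, 32.6 and 29.5 against 65.3, 70.5 and 89.7 TPM (-1.21 ± 0.13). The 3 genes higher on chromosome 4 lie at the distal edge and encode no zinc-finger protein: Miip, the lysyl hydroxylase Plod1 and the retrovirus restriction factor Fv1. Fv1 had 7.35, 5.22 and 5.61 against 0.209, 0.121 and 0.400 TPM (2.50 ± 0.32).

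On chromosome 13, 2410141K09Rik had 0.0365, 0.0206 and 0 against 40.8, 53.8 and 62.1 TPM (-5.69 ± 0.13). The pseudogene Zfp640 was listed at 0 in the 2D EpiSCs against 25.9, 20.7 and 40.4 TPM, and Gm10324 at 0 against 16.6, 17.2 and 26.4 TPM. On chromosome 2, Gm14401 was at 0.144, 0 and 0.229 against 13.01, 15.7 and 26.2 TPM (-4.05 ± 0.24), and Gm14418 at 0.784, 3.17 and 1.15 against 25.3, 24.2 and 28.9 TPM (-3.43 ± 0.36). Of all 343 symbols beginning with Zfp, 34 were lower and 21 higher. Of the lower ones 22 lay among the 50 inside the stretches, which were chosen for such genes, and 12 among the 293 elsewhere. Values of single copies are uncertain, because reads of near-identical paralogs can be split between them.

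**Figure D3:**
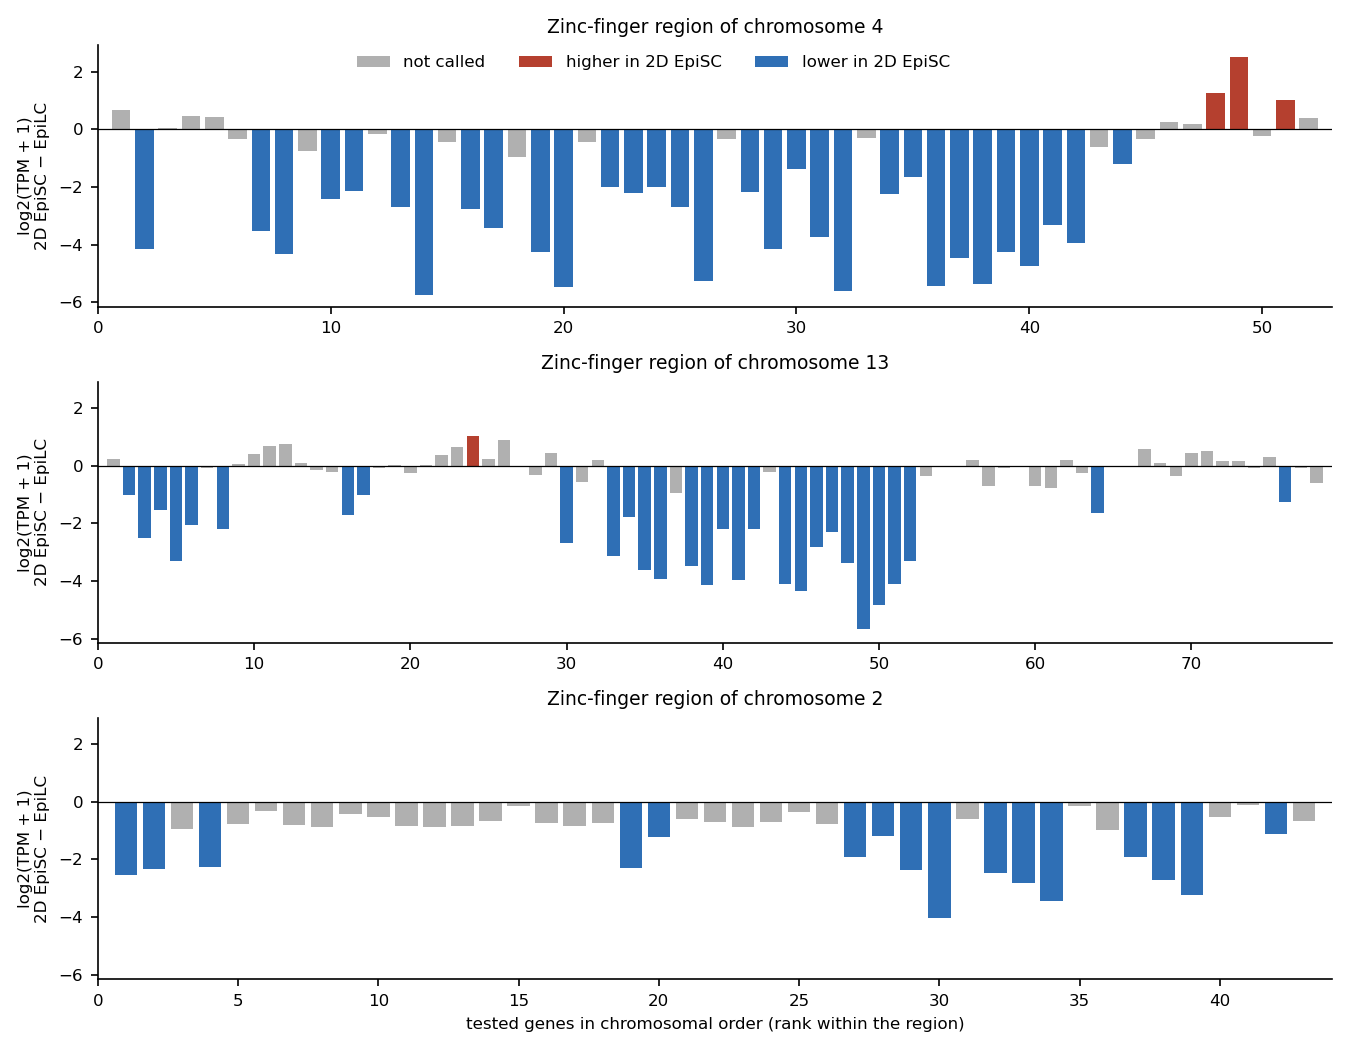
Difference of 2D EpiSCs minus EpiLCs in mean log2(TPM + 1) (y axis) for the 52, 78 and 43 genes compared in 3 stretches of chromosomes 4, 13 and 2, in chromosomal order by rank (x axis), with lower genes in blue, higher genes in red and genes not called in grey. Lower genes number 31, 29 and 16, and on chromosome 4 they run between genes that were not called. Part of these counts was set by the filter, which many of the lower genes passed through the EpiLCs alone.

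Most organizer and anterior genes compared were higher in the 2D EpiSCs. Of 18 listed genes 16 were compared and 14 were higher, none lower, with 9 having passed the filter through the 2D EpiSCs alone. Cer1, a secreted antagonist of Nodal, BMP and Wnt, had 369.9, 369.6 and 309.1 TPM in the 2D EpiSCs and 0, 0 and 0.0322 TPM in the EpiLCs, the largest increase of all genes compared (8.43 ± 1.10, adjusted p = 6.50e-05 by limma). Lhx1, a LIM homeobox factor of the anterior mesendoderm, had 111.0, 103.6 and 89.1 against 0.316, 0.0257 and 0.298 TPM (6.40 ± 0.67). In the 3D EpiSC libraries Cer1 averaged 41.3 ± 67.4 TPM (SD, n = 3) when ESC-derived and 163.7 ± 92.6 TPM when embryo-derived. Lhx1 averaged 8.49 ± 12.2 and 43.8 ± 6.74 TPM there. Other members were not set beside those cultures. Gsc, or Goosecoid, had 26.97, 28.1 and 33.99 against 0, 0.0998 and 0.387 TPM (4.73 ± 0.28). The Wnt antagonists of the same territory followed, with Sfrp5 at 47.3, 48.2 and 16.8 against 0.651, 0.814 and 0.750 TPM (4.33 ± 0.53), Dkk1 at 20.5, 20.4 and 18.5 against 0.466, 0.150 and 0.553 TPM (3.91 ± 0.77) and Frzb at 3.41 ± 0.33. Hhex (3.17 ± 0.41) and Hesx1 (3.02 ± 0.54), homeobox genes of the anterior endoderm and forebrain, were higher. Lefty1, a Nodal antagonist, and Foxj1 were not called.

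Primitive streak genes were called higher in 8 of the 9 members compared, of 22 listed, and in 7 after rescaling, with 5 of the 9 having passed the filter through the 2D EpiSCs alone. T, or Brachyury, had 37.5, 34.8 and 24.1 against 1.46, 0.554 and 1.275 TPM (3.99 ± 0.35, adjusted p = 3.24e-06 by limma). Eomes, a T-box factor of the early streak, had 51.0, 50.9 and 48.4 against 4.67, 3.19 and 5.31 TPM (3.26 ± 0.27). Mixl1 had 4.64, 5.07 and 10.1 against 1.36, 0.479 and 1.26 TPM (1.86 ± 0.30). The mesoderm genes that follow them in the embryo stayed at the floor. Mesp1 was listed at 0 in all 2D EpiSC libraries, Msgn1 likewise, and Tbx6 had 0.989, 0.471 and 0.679 against 0.773, 0.754 and 0.492 TPM. None of the 39 Hox genes passed the filter, and the highest value among them was 2.85 TPM, for Hoxd13 in an EpiLC library.

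Endoderm genes were higher in 9 of the 12 members compared, of 20 listed, and 1 was lower; 8 had passed the filter through the 2D EpiSCs alone and 1 through the EpiLCs alone, which largely sets this count. Sox17, which specifies endoderm, had 26.1, 24.3 and 24.7 against 0.0815, 0.261 and 0.299 TPM (4.43 ± 0.58). Foxa2, a pioneer factor, had 33.0, 30.4 and 24.6 against 0.721, 0.559 and 0.602 TPM (4.21 ± 0.33), and Gata6 had 23.6, 24.0 and 17.1 against 0.214, 0.143 and 0.227 TPM (4.22 ± 0.54). The pepsinogen gene Pga5 and the trypsin inhibitor gene Spink1 were listed at 0 in all EpiLC libraries and reached 216.0, 215.8 and 61.4 TPM and 73.9, 80.4 and 31.8 TPM in the 2D EpiSCs. Genes of later visceral and yolk sac endoderm were low and did not pass the filter. Apoa1 had 2.42, 2.48 and 0.164 against 0.405, 0 and 0 TPM and Hnf4a had 1.61, 1.65 and 0.465 against 0.0886, 0.120 and 0.147 TPM, whereas Afp was listed at 0 in the 2D EpiSCs and Ttr at 0, 0.259 and 0 TPM. Trf, the transferrin gene, was listed at 0 against 3.93, 3.86 and 2.22 TPM.

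Replicate 3 of the 2D EpiSCs carried less of these transcripts. It was the lowest of the 3 in 8 of the 9 higher endoderm genes, with a median of -0.75 on the log2 scale against the mean of replicates 1 and 2, and in 12 of the 14 higher organizer genes (-0.35). Over all 1797 higher genes it was the lowest in 908 (-0.06), and over the 8 higher streak genes in 4 (0.03). The 10 endoderm markers fixed as a check summed to 71.2 TPM in replicate 3 and 94.2 and 98.0 TPM in the others, beside 2.07 to 2.701 TPM in the EpiLCs. Defining genes of the list at 0 were Afp in the 2D EpiSCs and Ttr in the EpiLCs, and the part of endoderm markers in the other differences was not tested.

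Other lineages gave weaker signals. Of 7 neuroectoderm genes compared, of 18 listed, Nefl (3.29 ± 0.37), Nefm (3.08 ± 0.30) and Nes (2.26 ± 0.26), all encoding intermediate filaments, were higher, whereas the defining markers Sox1, Pax6, Six3 and Neurog2 summed to 1.57 to 2.42 and 2.14 to 2.80 TPM. The 5 trophoblast genes compared, of 13 listed, were higher, 4 after rescaling, but 4 had passed the filter through the 2D EpiSCs alone, which nearly fixes the count. Gata3 differed most, at 10.3, 9.79 and 3.26 against 0.0827, 0.0525 and 0.0553 TPM (2.92 ± 0.31), while Elf5 stayed under 1 TPM and the placental genes Tpbpa, Prl3d1 and Psg17 were listed at 0 in every library. Fibroblast markers, which would mark feeder cells, summed to 24.7 to 26.3 TPM in the 2D EpiSCs and 36.05 to 45.7 TPM in the EpiLCs over 11 genes, with Fap at 0 throughout. Thy1, and in the EpiLCs also Dcn, made up the largest part of these sums. Col1a1 (1.01 ± 0.20) and Col1a2 (1.06 ± 0.15) were called higher, but not after rescaling, and Dcn was lower (-3.51 ± 0.25). Col3a1 (1.33, 1.33 and 1.31 against 0.0322, 0.0709 and 0.158 TPM) and Pdgfrb were higher in every 2D EpiSC library, and Thy1 was lower. The sums thus give no common direction for these markers.

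**Figure D4:**
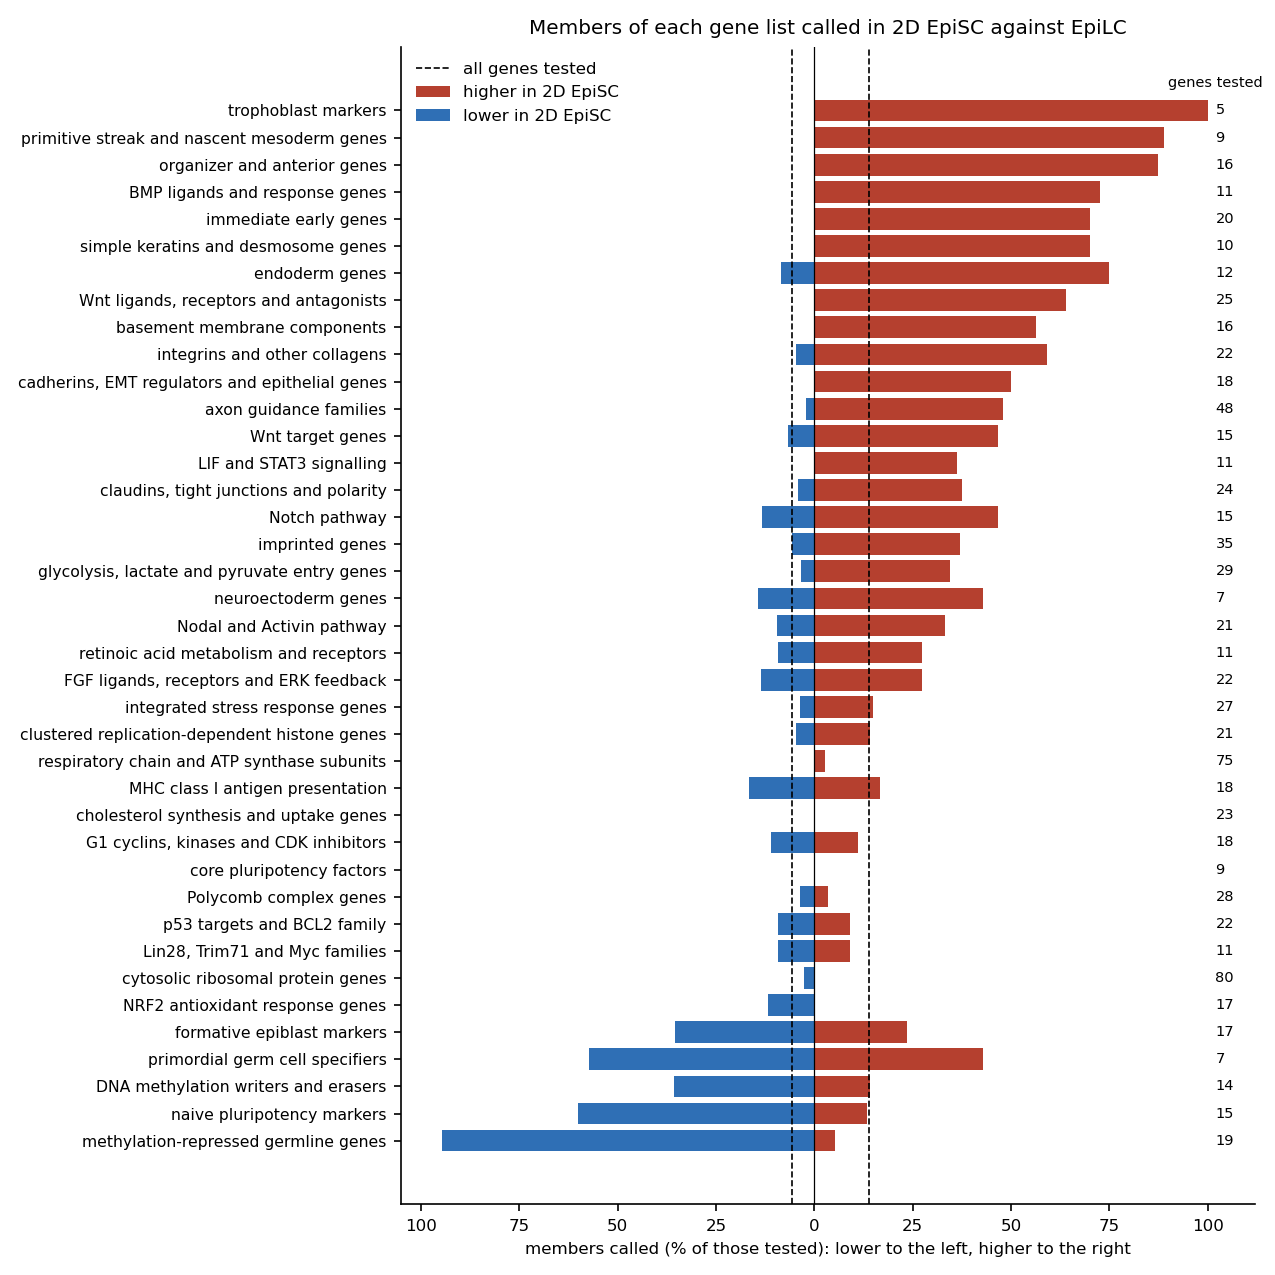
Share of the compared members of each gene list called higher (red, to the right) or lower (blue, to the left) in 2D EpiSCs, in percent, with the number compared at the right edge and dashed lines at the shares over all genes, 13.8% and 5.71%. Lists with 5 or more compared members are shown. Trophoblast, streak and organizer genes stand at the top and methylation-repressed germline genes at the bottom. Part of this order was set by the filter. Of those 3 top lists, 4 of 5, 5 of 9 and 9 of 16 members passed it through the 2D EpiSCs alone. Of the germline list, 17 of 19 passed it through the EpiLCs alone.

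In Nodal and Activin signalling the ligand gene Nodal itself was not called. Nodal stood at 48.6, 41.9 and 54.3 against 47.8, 44.8 and 57.7 TPM, overlapping (-0.05 ± 0.16). Of 21 pathway genes, 7 were higher and 2 lower, with 6 higher after rescaling, and their median was 0.61. Cfc1, a Nodal co-receptor known as Cryptic, had 21.5, 19.8 and 15.9 against 0.0620, 0.126 and 0 TPM (4.23 ± 0.53), whereas its relative Tdgf1 was not called. The receptors Acvr1b (1.19 ± 0.14) and Acvr2b (1.13 ± 0.19), the convertase Furin (2.07 ± 0.14) and the transducer Smad3 (1.67 ± 0.17) were higher, and Smad2 was not (-0.01). Gdf3, a TGF-β ligand of ESCs, had 0.629, 0.390 and 0.505 against 75.3, 68.4 and 47.2 TPM (-5.40 ± 0.16), and its paralog Gdf1 was lower too (-2.23 ± 0.21).

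Wnt ligands, receptors and antagonists were higher in 16 of 25 members compared, of 43 listed, before and after rescaling, and none was lower; 8 had passed the filter through the 2D EpiSCs alone. Wls, the carrier that takes Wnt proteins to the cell surface, had 57.3, 54.7 and 51.2 against 2.55, 1.87 and 2.76 TPM (4.04 ± 0.13, adjusted p = 1.04e-09 by limma). Fzd5 had 81.8, 77.0 and 62.1 against 8.34, 7.69 and 9.90 TPM (2.95 ± 0.34) and Fzd8 had 34.2, 34.03 and 23.4 against 3.07, 2.61 and 3.83 TPM (2.91 ± 0.17). Direct targets of the pathway did not move as one, with 7 of 15 higher and 1 lower, and 5 having passed the filter through the 2D EpiSCs alone. Lgr5 (2.65 ± 0.28), Rnf43 (2.11 ± 0.18) and Sp5 (1.72 ± 0.17) were higher. Axin2, the most general target, had 7.09, 6.49 and 7.11 against 6.94, 6.22 and 7.98 TPM and overlapped (-0.02 ± 0.20), as Ccnd1 (0.15), Znrf3 (-0.05) and Nkd1 (0.52) were not called either. The letters CTTTGAT, a TCF/LEF motif, stood on either strand in 2.67% of the promoters of higher genes and 2.81% of all promoters.

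BMP ligands and response genes were higher in 8 of 11 members compared, also after rescaling, with 3 having passed the filter through the 2D EpiSCs alone. Id1, a direct target, had 84.8, 89.5 and 41.8 against 4.59, 4.65 and 8.68 TPM (3.36 ± 0.31), and Id3 had 62.1, 62.1 and 40.0 against 17.3, 13.9 and 11.7 TPM (1.85 ± 0.25). The ligand gene Bmp2 had 17.5, 17.5 and 12.5 against 0.0326, 0 and 0.0892 TPM (4.00 ± 0.46), while Bmp4 was not called (0.02). Of 22 FGF pathway genes 6 were higher and 3 lower, and 5 and 5 after rescaling: besides Fgf5, Fgf8 (1.92 ± 0.28) and the receptors Fgfr1, Fgfr2 and Fgfr3 were higher, and Fgf4, Fgf15 and Etv5 lower. The feedback inhibitors Spry2, Spry4 and Dusp6 were not called. Cyp26a1, which degrades retinoic acid, had 138.7, 134.3 and 82.5 against 0.0454, 0 and 0.187 TPM (6.76 ± 0.62), the largest difference in the retinoic acid list, where 3 of 11 genes were higher and 1 lower, 2 and 2 after rescaling.

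Notch genes were higher in 7 of 15 members, but in 3 after rescaling, with Hey1 (2.2 ± 0.19) and Nrarp (2.11 ± 0.18) the furthest and the ligand gene Dll1 lower at 5.87, 5.91 and 3.35 against 25.1, 14.6 and 35.8 TPM (-2.06 ± 0.28). Socs3 (1.74 ± 0.12), Jak2 (1.21 ± 0.19) and Junb were among 4 of 11 LIF and STAT3 genes that were higher, 3 after rescaling. Immediate early genes were higher in 14 of 20 members compared, also after rescaling, with a median of 1.51. Cyr61, a target of serum and YAP, had 308.9, 299.5 and 322.3 against 13.5, 7.47 and 6.86 TPM (4.98 ± 0.20), Fos had 64.9, 58.6 and 37.4 against 7.17, 0.840 and 1.59 TPM (3.97 ± 0.48) and Jun had 50.01, 49.5 and 36.8 against 6.01, 2.67 and 3.73 TPM (3.22 ± 0.42). Ier2 (-0.26), Srf (0.05) and Myc (-0.43) were among those not called.

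Many epithelial and matrix genes were higher in the 2D EpiSCs. Of 10 simple keratin and desmosome genes 7 were higher, before and after rescaling. Krt19 had 125.1, 124.2 and 132.8 against 3.35, 3.56 and 4.01 TPM (4.79 ± 0.39), Krt8 had 339, 323 and 286 against 16.3, 16.6 and 11.7 TPM (4.33 ± 0.16), and its partner Krt18 had 371, 366 and 272 against 35.2, 45.4 and 29.5 TPM (3.17 ± 0.20). Dsp, the desmosomal plakin, had 71.2, 74.5 and 75.1 against 4.16, 2.88 and 3.96 TPM (4.01 ± 0.23). E-cadherin, Cdh1, was shared at 546.1, 520.3 and 503.7 against 568.2, 481.9 and 479.0 TPM (0.04 ± 0.11). Of 18 genes of the cadherin and epithelial-mesenchymal list, 9 were higher, 7 after rescaling, with 4 having passed through the 2D EpiSCs alone, among them N-cadherin, Cdh2 (2.96 ± 0.30), Tgfb2 (3.45 ± 0.36), Mmp14 (2.16 ± 0.14) and Zeb2 (1.56 ± 0.24). None was lower, and the epithelial splicing factor Esrp1 (0.12) and Epcam (0.44) were not called.

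Of 24 claudin, tight junction and polarity genes 9 were higher, 8 after rescaling, with Podxl (2.39 ± 0.23), Crb3 (2.19 ± 0.15), Cldn3 (2.07 ± 0.26) and Cldn7 (1.89 ± 0.16) first, and Cldn5 was lower (-1.79 ± 0.16). Basement membrane genes were higher in 9 of 16, before and after rescaling. Sparc, a matrix glycoprotein, had 411, 413 and 420 against 78.0, 90.8 and 81.2 TPM (2.30 ± 0.14). Axon guidance families were higher in 23 of 48 members compared, 21 after rescaling, and 1 was lower, with 11 having passed the filter through the 2D EpiSCs alone. Sema6d (3.53 ± 0.36), Slit3 at 40.2, 38.5 and 37.1 against 2.75, 2.27 and 2.49 TPM (3.5 ± 0.17), Ntn1 (3.36 ± 0.17) and Efna5 (2.91 ± 0.19) differed most, and Sema4a was the one lower (-1.97 ± 0.18).

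Glycolytic genes were higher in 10 of 29 members compared and in 6 after rescaling, with 1 lower and a median of 0.76. Slc2a3, the glucose transporter GLUT3, had 961, 917 and 1034 against 95.4, 123.4 and 66.9 TPM (3.38 ± 0.27, adjusted p = 1.44e-06 by limma). Slc2a1, or GLUT1, was higher by 1.54 ± 0.29 with groups apart, and Pfkfb3, a regulator of phosphofructokinase, was higher by 2.59 ± 0.53. Ldhb moved the other way from Ldha, with 171.5, 171.7 and 140.8 against 438.2, 499.8 and 514.0 TPM (-1.58 ± 0.13) beside 4708, 4797 and 4717 against 2223, 2701 and 2097 TPM (1.03 ± 0.21). Gapdh overlapped between the groups (0.02 ± 0.12). The respiratory chain and ATP synthase list of 75 had a median of 0.05, with 2 higher, Cox6b2 (1.70 ± 0.20) and Cox7a1 (1.04 ± 0.22), the latter not after rescaling. None of 23 cholesterol genes was called in limma, and 1 was lower after rescaling.

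Imprinted genes, which are expressed from one parental allele, were higher in 13 of 35 members compared, 10 after rescaling, and lower in 2. Grb10, a growth-inhibiting adaptor, had 573, 541 and 280 against 16.2, 13.8 and 20.9 TPM (4.64 ± 0.42). Igf2, a fetal growth factor, had 39.6, 37.4 and 21.0 against 1.16, 0.0297 and 0.127 TPM (4.58 ± 0.32). Gnas (2.26 ± 0.12) and Peg3 (2.03 ± 0.22) were higher, and Meg3 (0.19), Snrpn (0.21) and Cdkn1c (-0.09) were not called. Replicate 3 of the 2D EpiSCs was again the lowest of its group in 9 of the 13 higher genes. The files do not separate the parental alleles.

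Regulators of proliferation and survival moved one by one. Of 18 G1 genes, Ccnd2 (2.26 ± 0.33) and Cdk6 (2.19 ± 0.27) were higher and Ccne1 (-1.30 ± 0.10) and Cdkn2a lower, the last at 12.6, 11.1 and 4.58 against 27.4, 33.8 and 15.6 TPM (-1.38 ± 0.33); it missed the threshold of size without 2D EpiSC replicate 3 (-0.98). Pmaip1, the BH3-only protein NOXA, had 4.06, 3.96 and 3.16 against 92.2, 70.1 and 101.8 TPM (-4.22 ± 0.32), and Bcl2 was higher (1.81 ± 0.17). Polycomb genes were nearly level, with 1 of 28 higher and 1 lower, 0 and 1 after rescaling. Of 18 MHC class I genes 3 were higher, 2 after rescaling, B2m among them (1.93 ± 0.18), and 3 lower, with Psmb10 at -1.95 ± 0.21. Of 17 NRF2 response genes none was higher and 2 were lower, Nqo1 (-2.50 ± 0.33) and Gsta4 (-1.12), and of 27 integrated stress response genes 4 were higher, Vldlr (2.36) and Ddit4 (2.06) among them, and 1 lower, 4 and 2 after rescaling. With 13.8% of all genes higher and 5.71% lower, such small counts say little about these lists. Integrins and the remaining collagens were higher in 13 of 22 members compared, 10 after rescaling, and 1 was lower, with 9 having passed through the 2D EpiSCs alone.

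MicroRNAs of the pluripotent state were represented by their hairpin genes, which are 66 to 84 bases long. These poly-A libraries measured reads over the hairpins and not the mature microRNAs. The genes of the miR-302 cluster, Mir302a to Mir302d and Mir367, lie at chr3:127545228-127545807 on the plus strand, within Larp7 on the minus strand. Mature sequences are shown because several members share a seed, bases 2 to 8, here in capitals, with each other and with microRNAs of the miR-290 to miR-295 cluster on chromosome 7. They are taken from RefSeq (GRCm38.p6), at chr3:127545275-127545297, chr3:127545406-127545427, chr3:127545665-127545687, chr3:127545779-127545800, chr7:3220691-3220712 and chr7:3220815-3220837, all on the plus strand.
mmu-miR-302b-3p: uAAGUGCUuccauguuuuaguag
mmu-miR-302c-3p: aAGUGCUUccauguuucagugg
mmu-miR-302d-3p: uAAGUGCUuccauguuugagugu
mmu-miR-367-3p: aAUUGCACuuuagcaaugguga
mmu-miR-294-3p: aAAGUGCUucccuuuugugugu
mmu-miR-295-3p: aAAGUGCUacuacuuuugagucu
As annotated, miR-302b-3p, miR-302d-3p, miR-294-3p and miR-295-3p have the seed AAGUGCU, miR-302c-3p has AGUGCUU, and miR-367-3p has AUUGCAC.

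All 5 hairpin genes of the miR-302 cluster were higher in the 2D EpiSCs, and none of the 6 of the other cluster was called. Those 5 were under 2 TPM in every EpiLC library. They thus passed the filter through the 2D EpiSCs alone, which nearly fixes their direction. Since they lie side by side in a single cluster, their calls cannot be counted as separate results. Of 54 microRNA genes compared 7 were higher, beside 13.8% of all genes. Mir302b had 10.9, 7.26 and 4.87 against 0.00850, 0.558 and 0.743 TPM (2.57 ± 0.35, adjusted p = 9.69e-05 by limma), and Mir367 had 9.74, 8.502 and 7.12 against 1.46, 0.628 and 1.79 TPM (2.07 ± 0.22). Mir302a, Mir302c and Mir302d were higher by 1.84, 2.24 and 1.89, with no overlap between groups. The host Larp7 had 97.0, 95.8 and 115.3 against 115.9, 105.4 and 124.3 TPM (-0.17 ± 0.11), groups that overlapped. Counting by strand is not stated in the sources used here, and reads of Larp7 and of the hairpins could be mixed. Mir294 was at 10.3, 11.6 and 9.55 against 21.5, 14.3 and 18.2 TPM (-0.71 ± 0.15), and Mir290a, Mir291b, Mir292, Mir293 and Mir295 differed by -0.10 to -0.82.

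The remaining genes with the largest increases were of varied function. Slc39a8, a zinc and manganese importer, had 333.1, 329.7 and 355.4 against 2.62, 1.54 and 2.52 TPM (6.74 ± 0.22). Penk, the enkephalin precursor, was higher by 5.02 ± 0.19, and Flt1, the VEGF receptor 1 gene, had 68.7, 67.4 and 55.7 against 0.996, 0.771 and 1.40 TPM (4.99 ± 0.39). The chemokine receptor gene Cxcr4 had 67.7, 65.1 and 52.6 against 1.06, 0.959 and 0.926 TPM (4.98 ± 0.68), and Anxa2, a membrane-binding annexin, had 122.7, 118.9 and 147.3 against 3.33, 5.43 and 1.72 TPM (4.94 ± 0.48). In each the groups were far apart.

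The differences were then set beside the embryo, as the change between the E5.5 and E7.5 epiblast, 3 libraries each. The embryo libraries were made with another kit, so changes were taken within them alone, as a description with no test. Of the genes higher in 2D EpiSCs, 24.5% rose by over 1 log2 unit from E5.5 to E7.5 and 3.23% fell, beside 7.5% and 3.1% of all genes compared. Of the genes lower in 2D EpiSCs, 21.1% fell and 5.53% rose. Slc39a8 rose from 14.9 ± 1.05 to 46.8 ± 0.64 TPM (SD, n = 3) and Igf2 from 27.1 ± 2.23 to 189.9 ± 7.65 TPM, whereas Dppa5a fell from 33.5 ± 1.65 to 0.387 ± 0.67 TPM and Dppa4 from 25.8 ± 0.95 to 0.162 ± 0.14 TPM.

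**Figure D5:**
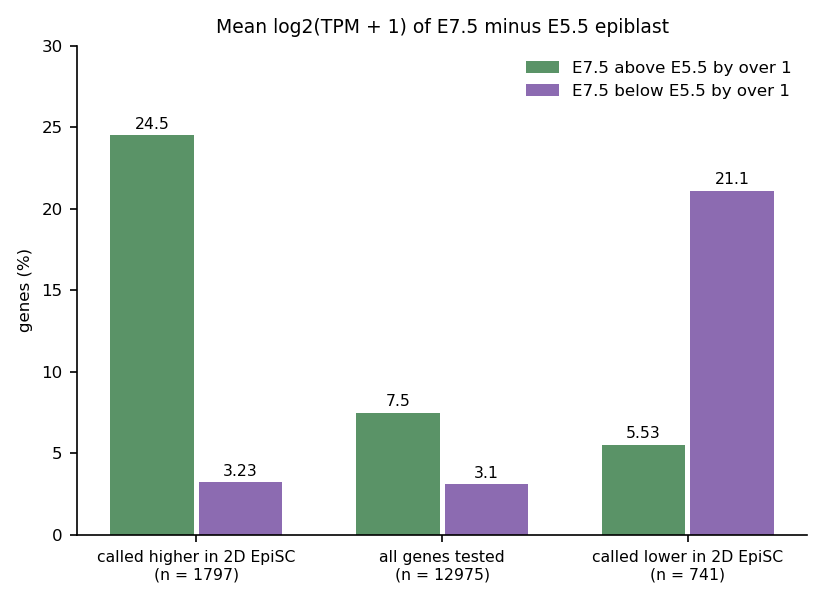
Percent of genes (y axis) whose mean log2(TPM + 1) was over 1 higher (green) or over 1 lower (purple) in E7.5 than in E5.5 epiblast, for genes higher in 2D EpiSCs (n = 1797), all genes compared (n = 12975) and genes lower in 2D EpiSCs (n = 741). The shares that rose were 24.5, 7.5 and 5.53%, and those that fell 3.23, 3.1 and 21.1%.

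Some genes with large differences peaked between these stages. Eomes, higher in the 2D EpiSCs, stood in the epiblast at 77.6 ± 3.17 TPM at E5.5, 159.6 ± 13.4 TPM at E6.5 and 4.10 ± 0.86 TPM at E7.5. Gsc was at 12.4 ± 1.90, 33.2 ± 5.17 and 0.992 ± 0.08 TPM, and Lhx1 at 18.02 ± 1.39, 44.0 ± 4.96 and 7.06 ± 0.92 TPM. All 3 were thus highest at E6.5 and lower at E7.5 than at E5.5. Frzb, of the same organizer list, went the same way in both, with a rise of 2.46 log2 units in the epiblast. Against the direction in culture, Gbx2, lower in the 2D EpiSCs, rose from 0.889 ± 0.81 to 95.1 ± 3.24 TPM, and Tcf15 rose from 2.97 ± 0.57 to 18.5 ± 1.90 TPM. Tdh, the threonine dehydrogenase of ESCs, was lower in the 2D EpiSCs (-3.21 ± 0.41) and rose from 11.1 ± 1.29 to 33.7 ± 1.35 TPM.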

How the data were processed

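RNA was captured by poly-A selection and amplified for 8 cycles, per the labels. The TPM per gene are as deposited. Before that step the authors used cutadapt 2.4 for trimming, STAR for alignment (mm10) and StringTie for quantification. Depth cannot be read from TPM, and counting intervals are therefore left out. The embryo libraries came from a total RNA kit. The table holds 54446 genes, and 12 identifiers on several lines were summed. Biotypes came from the GENCODE annotation supplied with the reference.

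Values were log2(TPM + 1). The 12 in vitro libraries were fitted together (limma 3.58.1, R 4.3.3, eBayes without trend), so the SE also draws on the 3D cultures, and the contrast was 2D EpiSC minus EpiLC with Benjamini-Hochberg adjustment over 12975 genes. In a simulation of this comparison, 198 of 200 genes with a planted change of 2 (log2) were recovered, beside 6 false calls. It drew independent normal noise with the same spread in all groups for a gene. The counts therefore do not cover unequal spreads, near-identical replicates or values near 0. Named genes were the 12 largest non-overlapping calls per direction, up to 4 called members per gene list, the core factors and members that an account needed. Zinc-finger stretches, microRNAs, long noncoding RNAs and genes opposed in the epiblast were chosen after their values were seen. The members and lists were chosen with earlier results of these data known. Lists were described by counts, without a set test. Alternatives were a pseudocount of 0.1, no filter, protein-coding genes, rescaled TPM, the 6 libraries alone, a replicate block, a variance trend, averaging near-identical replicates and leaving out each replicate. Python 3.11.15, pandas 2.3.3, numpy 2.4.6 and matplotlib 3.10.9 were used. Some genes of the lists are counted but not reported here by name.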

Additional observations from a re-analysis of the deposited data

How the results depend on the processing

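The numbers of higher and lower genes stayed within 1.5 times under all 14 alternatives, and no called gene changed sign. They were 2077 and 838 with a pseudocount of 0.1, 1961 and 1001 without a filter, 1721 and 590 over protein-coding genes and 1444 and 901 on rescaled TPM, and without single replicates 1721 to 1941 and 728 to 771. The replicate numbers did not pair the libraries (correlations of same-numbered deviations 0.12, -0.03 and -0.03), and a replicate block gave 1795 and 741 calls. The share of higher genes that rose from E5.5 to E7.5 was 27% on rescaled TPM, and the share of lower genes that fell was 16.2% without a filter, where more low genes are tested. Of 2726 values of 196 named genes, 2666 kept direction and call, 42 of 18 genes lost the call, 3 gained it and 15 changed sign, all of genes not called. On rescaled TPM Cdh1 was at -0.13, L1td1 at -0.053 and Pou5f1 at -0.14. Without single replicates the ranges were -0.098 to 0.060 for Axin2, -0.00052 to 0.12 for Cdh1, -0.17 to 0.029 for Dnmt1, -0.039 to 0.22 for L1td1, -0.25 to 0.060 for Mir292, -0.66 to 0.068 for Mir293, -0.14 to 0.053 for Nodal and -0.013 to 0.092 for Pou5f1. Of 1204 list counts 54 moved by over 1.5 times. Depth is unknown, so low values carry an unknown counting error.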

Other observations

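Of 160 lincRNA genes compared, 19 (11.9%) were higher and 46 (28.7%) lower in the 2D EpiSCs, beside 13.8% and 5.71% of all genes. Some of the lower lincRNA genes lie in the zinc-finger stretches described above. How many had passed the filter through the EpiLCs alone was not counted. Gm32885 had 0, 0.283 and 0 TPM in the 2D EpiSCs and 70.1, 122.3 and 112.7 TPM in the EpiLCs (-6.52 ± 0.20). EU599041 had 1.56, 1.44 and 1.51 against 47.5, 55.9 and 68.7 TPM (-4.53 ± 0.21), and Lncenc1, a lincRNA of naive ESCs, had 1.40, 2.09 and 1.90 against 31.6, 56.9 and 60.3 TPM (-4.13 ± 0.26). Platr5 (-3.92 ± 0.36) and Halr1 (-4.02 ± 0.27) were lower as well, and Halr1 was listed at 0 in the E5.5 epiblast and at 5.52 ± 0.30 TPM (SD, n = 3) at E7.5. Of 70 snoRNA genes compared 8 (11.4%) were lower. Of 1002 processed pseudogenes 18 (1.8%) were higher and 43 (4.29%) lower, both under the shares of all genes.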
